A study of Spodoptera frugiperda with 3 samples.

Results

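Fatty acid oxidation enzymes and catalase were represented by 5 of the 20644 genes listed for Verson's glands of Spodoptera frugiperda, the fall armyworm. The genes were chosen by identifier. They were LOC118266244 (3-ketoacyl-CoA thiolase, mitochondrial-like), LOC118275420 and LOC118275636 (both probable peroxisomal acyl-coenzyme A oxidase 1), LOC118279186 (phytanoyl-CoA dioxygenase, peroxisomal-like) and LOC118262513 (catalase-like). Verson's glands are paired dermal glands of caterpillars that release secretion under the old cuticle when the insect molts. The glands came from FAW-SID1, a transgenic strain that carries GFP driven by the baculovirus hr5-IE1 promoter and the Caenorhabditis elegans dsRNA channel gene SID1 driven by IE1, at 3 stages, which were the last instar larva (L6), the prepupa and the pupa. All 3 libraries carry the transgene and no gland of a non-transgenic insect was analysed here, the number of animals pooled in a library is not given in the sources used here, and the glands are known from the study to die after pupation. There was 1 library per stage, so no difference between stages could be tested, and stage and library cannot be told apart.

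Fatty acids are broken down by beta-oxidation, which shortens an activated chain by a pair of carbons in each round of dehydrogenation, hydration, a further dehydrogenation and thiolytic cleavage. Mitochondria carry out most of it and couple it to respiration, whereas peroxisomes take very long and branched chains and pass the electrons of the opening step to oxygen, which yields hydrogen peroxide. Catalase breaks this hydrogen peroxide down to water and oxygen, and in insects it also protects cells from peroxide made elsewhere.

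The libraries differed greatly in how many reads lay on ribosomal RNA (rRNA) genes, with 87.8% of exon reads in L6 glands, 0.307% in prepupal glands and 37.1% in pupal glands. The reads left on all other genes were 2610753, 15161624 and 11716156. Levels are therefore given as rescaled TPM, which is reads per exon length scaled to the same sum in every library over all genes other than 103 rRNA genes and 37 mitochondrial genes, and the rescaling multiplied the deposited TPM by 3.64 in L6 and 1.22 in the pupa and hardly changed it in the prepupa. A gene was called higher or lower when the ratio of TPM + 1 between 2 stages passed 2-fold. Intervals are 95% intervals and cover counting error only. RNA was taken from whole glands, so fewer cells of a type and less RNA per cell cannot be told apart.

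Of the 5 genes, the 4 oxidation enzymes had their highest level in the prepupa and catalase had its highest level in L6. Over all 12971 genes that reached a TPM of 1 in at least 1 library, 27.1% were highest in L6 glands, 46.4% in prepupal glands and 26.5% in pupal glands. With TPM as deposited, all 5 were highest in the prepupa. On CPM the dioxygenase LOC118279186 was highest in L6, and on rescaled TPM its prepupa and L6 levels differed by less than counting error. All 5 reached a TPM of 1 in some library, but LOC118275636 did so in the prepupa alone, so its highest stage was fixed by that minimum. Levels spanned a wide range, since catalase ranked among the most abundant protein-coding genes at every stage, whereas the 2 oxidase 1 genes and the dioxygenase lay between the percentiles 34.9 and 79.0 of these genes.

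**Figure D1:**
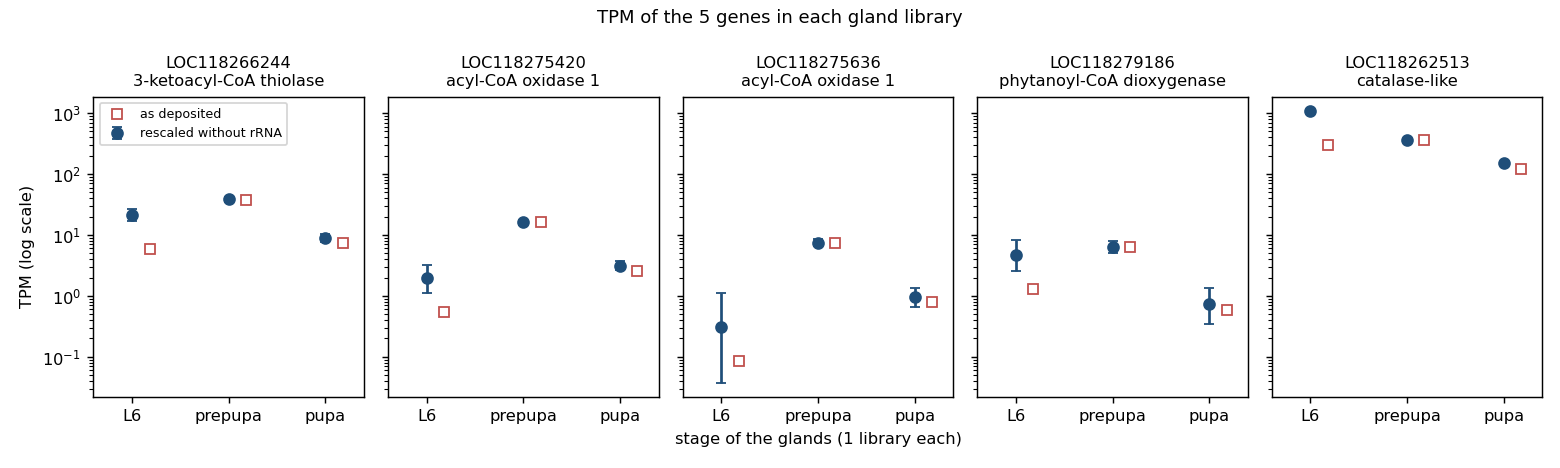
TPM of the 5 genes in the L6, prepupa and pupa gland libraries, on a log axis, with 1 library per stage. Filled circles are TPM rescaled without rRNA and mitochondrial genes, with 95% counting intervals, and open squares are TPM as deposited. Catalase lies far above the other 4 genes, with 1086, 361 and 151 rescaled TPM, and its order between L6 and the prepupa turns round on deposited TPM (360 in the prepupa and 299 in L6).

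Mitochondrial 3-ketoacyl-CoA thiolase carries out the last step of a round of beta-oxidation, the release of acetyl-CoA. LOC118266244 lies on NC_049717.1 from 12544565 to 12548651 on the plus strand and has 8 exons. Its level was 21.6 rescaled TPM in L6 glands, 38.4 in prepupal glands and 8.93 in pupal glands, from 80, 595 and 167 exon reads, all of them uniquely mapped. The prepupa thus had the highest level and the pupa the lowest, and the counting intervals of the 3 stages did not overlap. The prepupa level was 1.78 times that of L6 (95% interval 1.41 to 2.28), which is inside 2-fold. The pupa level was 4.30-fold lower than the prepupa level (3.61 to 5.13) and 2.41-fold below L6, with the log2 ratio of TPM + 1 at −1.18. On deposited TPM the last difference turned round to 0.26 on the log2 scale, and with TMM factors or median-of-ratios size factors it was −0.62 or −0.72, inside 2-fold. Among protein-coding genes the thiolase stood at the percentile 86.4 in L6 glands, 88.5 in prepupal glands and 78.4 in pupal glands.

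Acyl-CoA oxidase 1 catalyses the opening, hydrogen peroxide-producing step of peroxisomal beta-oxidation. The 2 genes of this name lie on the same sequence, NC_049711.1, on opposite strands. LOC118275420 spans 17987122 to 18003699 on the plus strand and LOC118275636 spans 19177000 to 19194759 on the minus strand, each with 13 exons, with 1173 kb and 129 other genes between them. LOC118275420 had 1.97 rescaled TPM in L6 glands, 16.2 in prepupal glands and 3.15 in pupal glands, from 15, 515 and 121 exon reads. The prepupa stood well above both other stages. Its level was 8.21 times the L6 level (4.93 to 14.8), and the pupa level was 5.13-fold lower than that of the prepupa (4.20 to 6.31). The pupa differed from L6 by less than counting error, at a ratio of 1.60 (0.933 to 2.95), although the log2 ratio of 0.48 passed 2-fold with TMM factors (1.15), with median-of-ratios size factors (1.02) and on deposited TPM (1.21).

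The other oxidase 1 gene, LOC118275636, was lower at every stage. It had 0.305 rescaled TPM in L6 glands, 7.52 in prepupal glands and 0.968 in pupal glands, from only 2, 206 and 32 exon reads. The prepupa was again the high stage, at 24.6 times the L6 level with an interval of 6.74 to 205, which the 2 reads of L6 leave very wide. In the pupa the level was 7.76-fold lower than in the prepupa (5.33 to 11.6). The ratio of pupa to L6 was 3.17 (0.810 to 27.3), and the log2 ratio of 0.59 was 1.08, 1.35 and 1.17 on CPM, with TMM factors and with median-of-ratios size factors. In L6, 5 of the 7 reads on this gene lay in introns, so its L6 level rests on almost no exon signal. Within a library, LOC118275420 had 6.45 times the TPM of LOC118275636 in L6 glands, 2.15 times in prepupal glands (1.82 to 2.54) and 3.25 times in pupal glands (2.19 to 4.96).

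A related gene, LOC118266995, named peroxisomal acyl-coenzyme A oxidase 3-like, was added after its values were seen. It had 2.38 rescaled TPM in L6 glands, 32.1 in prepupal glands and 19.9 in pupal glands. It thus held most of the oxidase reads, at 52.8% of the 36 reads on the 3 oxidase genes in L6 glands (Wilson interval 37.0 to 68.0%), 59.7% of 1791 in prepupal glands (57.5 to 62.0%) and 83.9% of 953 in pupal glands (81.5 to 86.1%). LOC118275420 took 41.7%, 28.8% and 12.7% of these reads, and LOC118275636 took 5.56%, 11.5% and 3.36%. The shares do not depend on how the libraries are scaled. On exon reads, the share of each oxidase 1 gene was lower in the pupa than in the prepupa beyond counting error. Reads spanning exon junctions were 51.4% of the exon reads of LOC118266995 in prepupal glands and 12.1% in pupal glands. For LOC118275420 they were 55.1% and 26.4%, and for LOC118275636 71.8% and 40.6%. Prepupal glands had 550, 284 and 148 junction reads on these genes, and pupal glands 97, 32 and 13. Whether the shares also differ on junction reads alone was not tested. The study selected LOC118266995 as higher in the glands than in other tissues and both oxidase 1 genes as lower. That choice may bear on the larger share of LOC118266995, which was not tested.

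Phytanoyl-CoA dioxygenase starts the alpha-oxidation of branched fatty acids, which removes a single carbon so that beta-oxidation can follow. LOC118279186 lies on NC_049736.1 from 516870 to 539242 on the plus strand, with 8 exons. It had 4.75 rescaled TPM in L6 glands, 6.38 in prepupal glands and 0.725 in pupal glands, from 13, 73 and 10 exon reads. The prepupa differed from L6 by less than counting error, at a ratio of 1.34 (0.739 to 2.64), and the log2 ratio of 0.36 was −0.04 on CPM and 1.67 on deposited TPM. The pupa was the low stage, 8.80-fold lower than the prepupa (4.53 to 19.1) and 6.55-fold lower than L6 (2.65 to 16.7). Most reads on this gene lay in introns, 53 of 66 in L6 glands (80.3%, Wilson interval 69.2 to 88.1%), 152 of 225 in prepupal glands (67.6%, 61.2 to 73.3%) and 35 of 45 in pupal glands (77.8%, 63.7 to 87.5%). Over all genes other than rRNA and mitochondrial genes, the intron share was 7.94%, 5.85% and 4.67%. Only 6, 32 and 7 of these intron reads were uniquely mapped, whereas every exon read of the gene was, and intron reads do not enter its TPM.

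Catalase, LOC118262513, lies on NC_049710.1 from 12732503 to 12735208 on the plus strand and has 2 exons. Its level was 1086 rescaled TPM in L6 glands, 361 in prepupal glands and 151 in pupal glands, from 5566, 7724 and 3894 exon reads, all uniquely mapped. It was therefore highest in the larval gland and lowest in the pupal gland, at the percentiles 99.2, 98.3 and 97.0 of protein-coding genes. The prepupa level was 3.01-fold lower than the L6 level (2.91 to 3.12) and the pupa level was 7.21-fold lower than the L6 level (6.92 to 7.51). The first of these rests on the scaling, because on deposited TPM the prepupa had 1.20 times the L6 level, a log2 ratio of 0.27 where rescaled TPM gave −1.59. The pupa level was 2.39-fold lower than the prepupa level (2.30 to 2.49), a log2 ratio of −1.25, which was −0.61, −0.31 and −0.42 on CPM, with TMM factors and with median-of-ratios size factors and so inside 2-fold.

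Ratios between genes of 1 library do not depend on the scaling. Catalase had 50.4 times the TPM of the thiolase in L6 glands (40.4 to 63.6), 9.40 times in prepupal glands (8.65 to 10.2) and 16.9 times in pupal glands (14.5 to 19.8). Against oxidase LOC118275420 it had 552 times the TPM in L6 glands (335 to 988), 22.3 times in prepupal glands (20.4 to 24.5) and 47.9 times in pupal glands (40.0 to 57.9). Against LOC118275636 the ratio was 3562 in L6 glands, 48.0 in prepupal glands and 156 in pupal glands, and against the dioxygenase it was 229, 56.5 and 208. The catalase gene LOC118262513 was thus least abundant relative to each of the oxidation enzymes in the prepupa. The counting intervals of the prepupa ratios did not overlap those of the other stages. This holds for LOC118262513 alone. The sum over 4 catalase-like genes, described below, was 1087, 2484 and 151 rescaled TPM in L6, prepupa and pupa, and its ratios to the oxidation enzymes were not taken.

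A further 3 genes named catalase-like were found, all on NC_049712.1 within 52.3 kb. They are LOC118262150 (15230499 to 15235331), LOC118282430 (15273499 to 15278554) and LOC118282418 (15280901 to 15282751). The last pair lies 2346 bp apart with no gene between them. LOC118262150 had no read in L6 glands, 673 rescaled TPM in prepupal glands and 0.256 in pupal glands, and LOC118282430 had no read in L6 glands, 1339 in prepupal glands and 0.262 in pupal glands. LOC118282418 had 0.472 in L6 glands, 112 in prepupal glands and 0.0468 in pupal glands. These 3 genes were thus nearly confined to the prepupa library, unlike LOC118262513, which was abundant at all 3 stages.

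Against a floor of 3 reads in L6, LOC118262150 was at least 1045-fold higher in the prepupa than in L6 and LOC118282430 at least 2026-fold higher, and the same bounds on deposited TPM were 3790 and 7345. The 2 reads of LOC118282418 in L6 gave a ratio of 237 (65.5 to 1959). In the pupa, LOC118262150 was 2634-fold lower than in the prepupa (1210 to 7180), LOC118282430 5106-fold lower (2345 to 13914) and LOC118282418 2390-fold lower, with an interval of 429 to 94462 that rests on 1 read in the pupa. Of the reads on the 4 genes named catalase-like, LOC118262513 took 100% of 5568 in L6 glands (Wilson interval 99.9 to 100%), 16.0% of 48213 in prepupal glands (15.7 to 16.4%) and 99.7% of 3907 in pupal glands (99.4 to 99.8%). All 4 names came from the study's selection of genes higher in the glands. A catalase gene without a name among the 2296 at hand would be missing from these shares and from the sum below. In the prepupa, LOC118282430 took 52.7%, LOC118262150 27.2% and LOC118282418 4.11%. Summed over the 4 genes, catalase-like transcripts reached 1087 rescaled TPM in L6 glands, 2484 in prepupal glands and 151 in pupal glands, so the sum was highest in the prepupa although LOC118262513 was not. These genes have related names, and reads shared between near copies could be split by the mapping, but all exon reads of LOC118262513 were unique. In the prepupa, 96.5% of the exon reads of LOC118262150 were unique, 97.4% of those of LOC118282430 and 98.8% of those of LOC118282418.

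**Figure D2:**
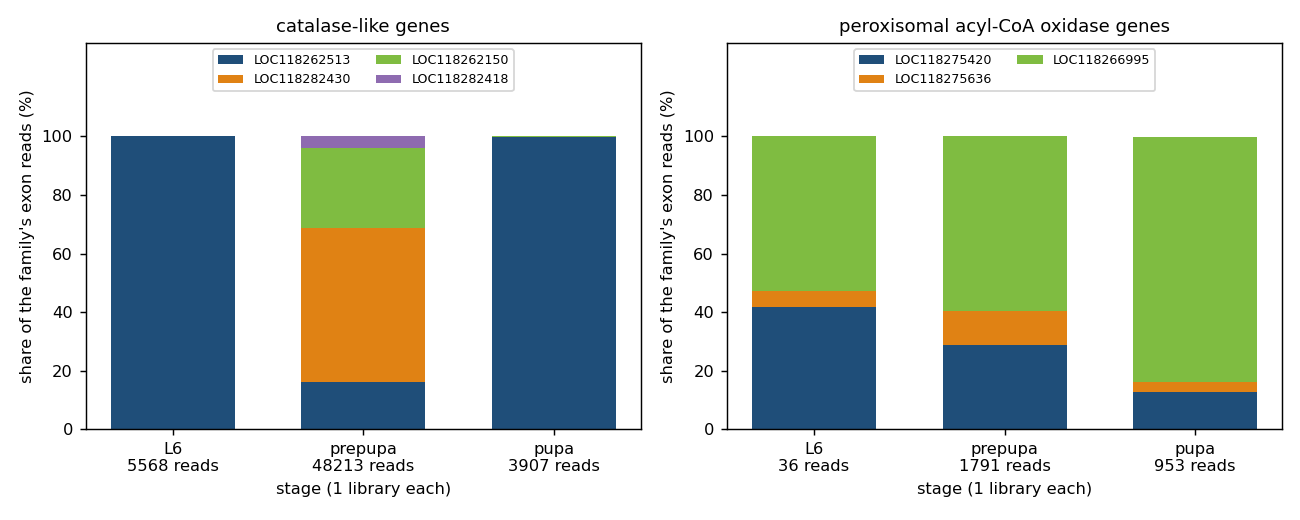
Share of exon reads (%) held by each gene among the 4 catalase-like genes (left) and the 3 peroxisomal acyl-CoA oxidase genes (right), in L6, prepupa and pupa, with the total reads of each family under the bars and 1 library per stage. LOC118262513 holds 100%, 16.0% and 99.7% of catalase-like reads, and LOC118266995 holds 52.8%, 59.7% and 83.9% of oxidase reads.

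Set side by side, 2 of the 5 genes were higher in the prepupa than in L6, the oxidase 1 genes, and 1 was lower, catalase. LOC118275636 passed the TPM minimum through the prepupa alone, so the direction of its call was set by that minimum. Its L6 level of 0.305 TPM also lay under the floor of 3 reads, 0.457 TPM. Over all genes tested, 33.7% were higher and 19.95% were lower. The thiolase and the dioxygenase stayed inside 2-fold. The median log2 ratio of the 5 genes was 0.80, against 0.38 over all genes, with a range of −1.59 to 2.71. On deposited TPM the split was 4 higher and 0 lower, against 68.5% and 7.78% of all genes, because leaving rRNA in the total lowers every other L6 value.

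From prepupa to pupa the picture was uniform, with 0 of the 5 genes higher and 5 lower in the pupa. For LOC118275636 the direction was again set by its passing the TPM minimum through the prepupa alone. Over all genes tested, 22.4% were higher and 39.8% were lower, so a decline was also the commonest call among genes at large. The log2 ratio of TPM + 1 was −1.99 for the thiolase, −2.05 and −2.11 for the oxidase 1 genes and −2.10 for the dioxygenase, while catalase had −1.25. The added 1 TPM makes the oxidation enzymes look more alike than their TPM ratios, since without it the pupa level was between 4.30-fold lower for the thiolase and 8.80-fold lower for the dioxygenase. With a pseudocount of 0.1 the 4 log2 ratios ran from −2.09 to −2.97, and with one of 5 from −1.64 to −0.99, where the dioxygenase was inside 2-fold. The median of the 5 was −2.05 and that of all genes −0.44. With TMM factors 4 of the 5 stayed lower, without catalase, against 33.8% higher and 30.0% lower among all genes.

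Between pupa and L6, which shares a library with each of the other comparisons, 0 of the 5 genes were higher in the pupa and 3 were lower, namely the thiolase, the dioxygenase and catalase. Over all genes tested, 20.01% were higher and 28.2% were lower. The median log2 ratio was −1.18 for the 5 genes and −0.29 for all genes. The call depends on scaling more than in the other comparisons. Deposited TPM gave 1 higher and 1 lower, against 40.9% and 7.52% of all genes, and TMM factors gave 2 higher and 2 lower, against 29.6% and 23.9%. Catalase was lower in the pupa than in L6 under all of these scalings.

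**Figure D3:**
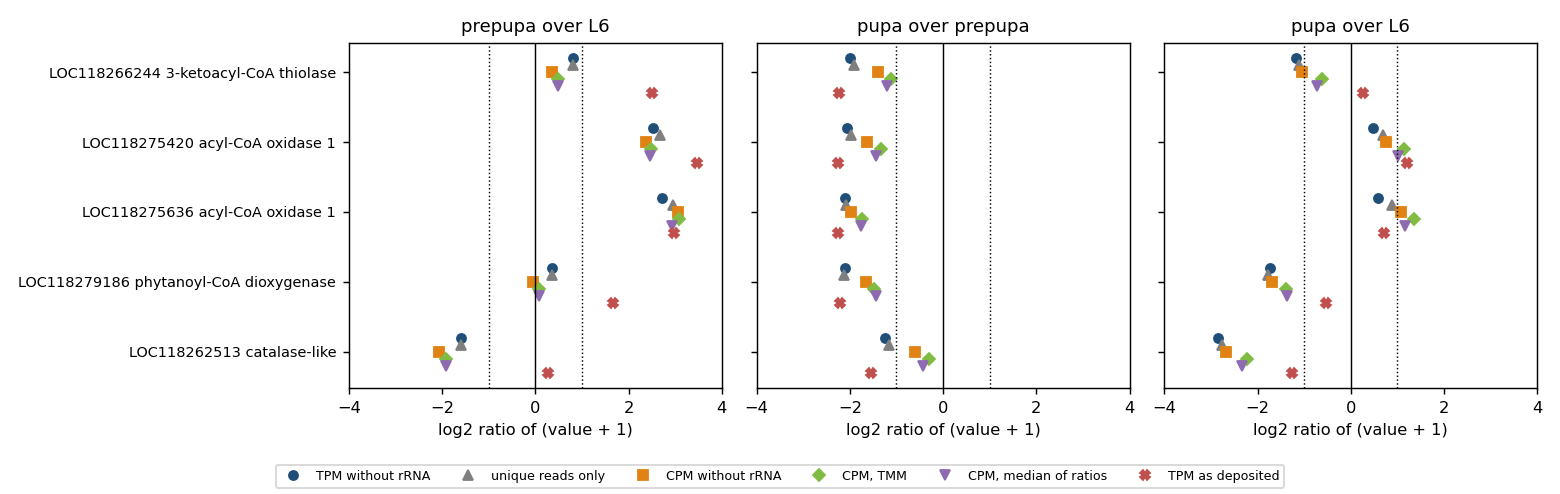
Log2 ratio of (value + 1) of the 5 genes for prepupa over L6, pupa over prepupa and pupa over L6, under 6 scalings (symbols), with dotted lines at 2-fold. All points of pupa over prepupa lie below 0, whereas catalase in prepupa over L6 moves from −1.59 on rescaled TPM to 0.27 on deposited TPM.

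The other genes of the pathway were taken from lists matched by protein name. Names were at hand for 2296 genes only, which the study had selected on these same libraries or by homology to hemolymph proteins, so the lists are partial and their counts are not independent evidence. The oxidation enzymes among the 5 genes were named in the study's selection of genes lower in the glands than in other tissues. Catalase and the other mitochondrial, peroxisomal and synthesis genes listed were named in its selection of higher genes. That choice may bear on a difference in level between them, which was not tested. In the mitochondrial list of 5 genes, thiolase included, 2 were higher and 0 lower in the prepupa than in L6, and 0 were higher and 5 lower in the pupa than in the prepupa. Over all genes these shares were 33.7% and 19.95%, and 22.4% and 39.8%. The medians were 0.80 and −1.99, against 0.38 and −0.44 over all genes. Deposited TPM gave 5 higher in the prepupa than in L6, against 68.5% of all genes. TMM factors left 3 lower in the pupa than in the prepupa, against 30.0% of all genes. Carnitine O-palmitoyltransferase 2 (LOC118265397), which hands long chains to the mitochondrial matrix, had 4.32, 75.9 and 6.30 rescaled TPM in L6, prepupa and pupa. Very long-chain acyl-CoA dehydrogenase (LOC118278275), the opening enzyme of the mitochondrial round, had 10.5, 80.4 and 8.68. Both stood out in the prepupa more than the thiolase did, at log2 ratios of 3.85 and 2.83 to L6, against 0.80. Hydroxyacyl-coenzyme A dehydrogenase (LOC118272082), the enzyme just before the thiolase, had 81.5, 126 and 59.7, and 3-hydroxyacyl-CoA dehydrogenase type-2 (LOC118264892) had 83.1, 52.0 and 23.3. Their lower pupa levels, at log2 ratios of −1.06 and −1.12 to the prepupa, were −0.13 and −0.20 with TMM factors, and LOC118264892 was higher in the prepupa than in L6 on deposited TPM only (1.15).

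The peroxisomal list held 9 genes, the 2 oxidase 1 genes and the dioxygenase among them. Of these, 5 were higher and 1 lower in the prepupa than in L6, 2 higher and 4 lower in the pupa than in the prepupa, and 2 higher and 1 lower in the pupa than in L6. The medians were 1.38, −0.93 and 0.48. Over all genes, 33.7% were higher and 19.95% lower in the first comparison, and 22.4% and 39.8% in the second. In the third, 20.01% of all genes were higher and 28.2% lower. The medians over all genes were 0.38, −0.44 and −0.29. On deposited TPM 8 were higher in the prepupa than in L6 and 7 were higher in the pupa than in L6, against 68.5% and 40.9% of all genes. Peroxisomal multifunctional enzyme type 2 (LOC118265656), which acts on the product of the oxidases, followed them in the order of stages at 29.6, 374 and 76.5 rescaled TPM, with 12.6 times as much in the prepupa as in L6 (11.0 to 14.6). A non-specific lipid-transfer protein-like gene (LOC118271672) had 116, 303 and 159. A few genes of the list had the opposite shape. The hydroxy-acid oxidase GLO3-like gene (LOC118263143), an enzyme of a class that also makes hydrogen peroxide, had 27.5, 1.99 and 31.7, and a phytanoyl-CoA dioxygenase domain-containing protein 1-like gene (LOC118262505) had 94.3, 59.3 and 160. LOC118262505 has a name close to that of LOC118279186 but its highest stage was the pupa, where LOC118279186 was lowest. Between prepupa and L6 the difference of LOC118262505 turned round on deposited TPM (log2 1.16, against −0.66).

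Among 3 genes of peroxisome structure, the peroxisomal targeting signal 1 receptor (LOC118267120), which brings enzymes into the organelle, had 15.6, 39.9 and 14.0 rescaled TPM. Peroxisomal membrane protein 2 (LOC118267019) had 95.3, 146 and 62.1. Both were highest in the prepupa on rescaled TPM, as the oxidation enzymes were. Peroxisomal membrane protein 11B (LOC118266450), of a family that promotes division of the organelle, had 18.3, 7.34 and 44.4 and was thus highest in the pupa. In the counts, 1 was higher and 1 lower in the prepupa than in L6, and 1 higher and 2 lower in the pupa than in the prepupa, which became 0 lower with TMM factors. The medians were 0.61 and −1.22, against 0.38 and −0.44 over all genes. Over all genes, 33.7% were higher and 19.95% lower in the first comparison, and 22.4% and 39.8% in the second. With TMM factors 30.0% of all genes were lower in the second.

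Fatty acid activation, the step ahead of oxidation, was represented by 6 genes, of which 4 were higher and 1 lower in the prepupa than in L6, with a median of 2.33. In the pupa 0 were higher and 3 lower than in the prepupa, with a median of −1.23. Among all genes 33.7% were higher and 19.95% lower in the prepupa than in L6, with a median of 0.38. In the pupa, 22.4% of all genes were higher and 39.8% lower than in the prepupa, with a median of −0.44. Long-chain-fatty-acid-CoA ligase 4-like (LOC118273647) had 38.5, 149 and 19.9 rescaled TPM. An acyl-CoA-binding protein homolog (LOC118266891), a carrier of activated fatty acids, had 1541, 458 and 356, so that like catalase it was abundant and highest in L6, and as with catalase the prepupa was above L6 on deposited TPM (log2 0.11, against −1.75). Fatty acid transport protein 4-like (LOC118273026) had 9.67, 70.2 and 68.9.

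The fatty acid synthesis list, which also took in elongases, desaturases and fatty acyl-CoA reductases, had 15 genes. Of these, 8 were higher and 0 lower in the prepupa than in L6, and 3 higher and 10 lower in the pupa than in the prepupa. No median is given because 5 of these genes had no exon read in L6. Over all genes, 33.7% were higher and 19.95% lower in the first comparison, and 22.4% higher and 39.8% lower in the second. LOC118265399 and LOC118265401, a pair of fatty acyl-CoA reductase genes, had no uniquely mapped exon read in any library, and on uniquely mapped reads 6 genes were higher in the prepupa than in L6 and 8 lower in the pupa than in the prepupa. The Delta(11) desaturase-like gene LOC118264952 had 103, 4061 and 14.9 rescaled TPM. Of the genes named fatty acid synthase-like, LOC118272899 was higher in the prepupa than in L6 (log2 1.56). The others, LOC118274609 and LOC118274634, were inside 2-fold (−0.26 and −0.42) and highest in the pupa. With TMM factors 3 of the 15 genes were lower in the prepupa than in L6, against 23.5% of all genes. The prepupa was the highest stage for 10 of these 15 genes, as for 4 of the 5 mitochondrial and 7 of the 9 peroxisomal genes, and for 46.4% of all genes.

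**Figure D4:**
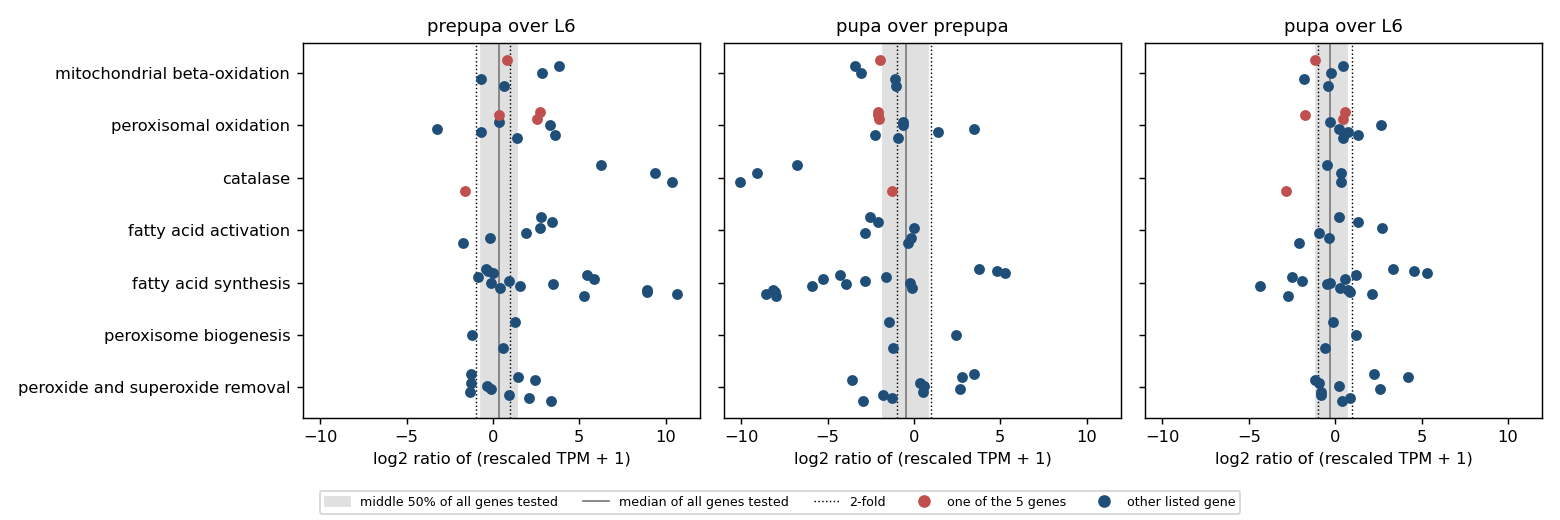
Log2 ratio of (rescaled TPM + 1) for each gene of 7 lists in prepupa over L6, pupa over prepupa and pupa over L6, with the 5 genes in red, other listed genes in blue, and the middle 50% and median of all 12971 genes tested in grey. In pupa over prepupa the 5 genes lie between −2.11 and −1.25, left of the median of all genes at −0.44.

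Other enzymes that remove peroxide or superoxide were compared with catalase in a list of 10. Of these, 4 were higher and 3 lower in the prepupa than in L6, with a median of 0.43, and 3 were higher and 4 lower in the pupa than in the prepupa, with a median of 0.46, which became 6 higher and 2 lower with TMM factors. Among all genes 33.7% were higher and 19.95% lower in the first comparison, and 22.4% and 39.8% in the second. The medians over all genes were 0.38 and −0.44. With TMM factors 33.8% of all genes were higher and 30.0% lower in the second. Phospholipid hydroperoxide glutathione peroxidase (LOC118276187), which reduces lipid peroxides, had 241, 2456 and 314 rescaled TPM, and peroxiredoxin 1-like (LOC118262554) had 366, 1546 and 649. A superoxide dismutase gene (LOC118276181) had 579, 1124 and 325. These 3 were highest in the prepupa, where catalase LOC118262513 was not. A further superoxide dismutase gene (LOC118271586) had 255, 100 and 146 and shared with LOC118262513 a high level in L6, which on deposited TPM was also lost (log2 0.50 for prepupa over L6, against −1.34).

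Genes with the most similar levels over the 3 libraries were sought among 12608 genes with at least 20 exon reads in all, by the distance between log2(TPM + 1) values. The thiolase was nearest to LOC118266775, ribosomal protein S6 kinase beta-1-like, at 22.7, 40.5 and 8.67 rescaled TPM and a distance of 0.110. The dioxygenase had a stromal interaction molecule homolog (LOC118271127) among its 3 nearest, at 4.60, 6.93 and 0.846. The genes nearest to LOC118275420 and LOC118275636, LOC118266928 and LOC118267168, carry no name in the tables used. Catalase had no neighbour as close, since its nearest gene, LOC118272009 at 879, 497 and 151, was at a distance of 0.553. Few genes lie at its percentiles of 99.2, 98.3 and 97.0. Whether its distance is large for a gene of that level was not tested. With 3 values per gene such likeness is a description only.

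Genes used as markers of other tissues also differed in level between the stages. Their names came from the study's selection of genes higher in the glands or from its hemolymph protein list. Whether their reads came from other tissues or from the gland itself was not tested. Fat body marker genes, 7 in all, summed to 3284 rescaled TPM in L6 glands, 326 in prepupal glands and 12192 in pupal glands, with 3 of the 7 highest in L6 and 4 in the pupa, where 1 had no exon read. A single gene, apolipophorin-3 (LOC118274630), made up most of the L6 and pupa sums, at 3028, 83.5 and 10387. The 9 muscle genes summed to 6402, 295 and 201, the 6 hemocyte genes to 512, 104 and 59.9, and the only midgut gene was at 1.47, 29.5 and 0.182. A titin-like gene (LOC118269398) made up most of the muscle sum in the prepupa, at 0.219, 210 and 0.218. The 6 troponin and actin genes were each higher in the pupa than in the prepupa, so the 2 muscle sums do not give their order. An integrin gene (LOC118266679) made up most of the hemocyte sum in the prepupa, at 28.7, 80.2 and 37.9. In L6, 6 of the 9 muscle genes and 4 of the 6 hemocyte genes had their highest level, which is also the stage in which catalase LOC118262513 was highest, and the part of these tissues in the levels of the 5 genes was not tested. No marker list for the gland itself was used.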

How the data were processed

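Verson's glands of FAW-SID1 were dissected by the authors at L6, prepupa and pupa and sequenced on the BGISEQ-500, 1 library per stage. Mapping to the fall armyworm genome was done by the authors with CLC Genomics Workbench 9.5.9 (mismatch cost 2, insertion and deletion cost 3, length and similarity fraction 0.8). The deposited counts are total and uniquely mapped reads on exons, junctions and introns of 20644 genes. The deposited TPM is exon reads per exon length, scaled over all genes with rRNA included. The deposited RPKM was not used further. The genome build, and how multi-mapped reads were treated, is not given in the sources used here, and coordinates are those of the files.

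TPM was rescaled over genes other than rRNA and mitochondrial genes, and ratios were taken of TPM + 1. Ratio intervals are exact binomial (Clopper-Pearson) intervals of the exon reads, share intervals are Wilson intervals, and folds against a library without reads use a floor of 3 reads. PCR duplicates are not marked, so both cover counting error only. Exon reads totalled 21366500 for L6, 15208331 for the prepupa and 18620715 for the pupa, and the reads on genes other than rRNA were fewest in L6. With 1 library per stage no test was made and no p-value is given. The steps were tested on simulated libraries with Python 3.11.15, numpy 2.4.6, pandas 2.3.3 and scipy 1.17.1, and TMM factors came from edgeR 4.0.16 in R 4.3.3. Alternatives were deposited TPM, TPM without rRNA only, CPM, TMM and median-of-ratios scaling, uniquely mapped reads, pseudocounts of 0.1 and 5, a fold of 4, and a TPM minimum of 5 or none.

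The 5 genes, the 7 lists and the 4 marker lists were chosen with earlier results of these data known. The text names the 5 genes, every gene named catalase-like in the tables held and the genes with the highest mean level in each list (4 at most), of which not all are printed. LOC118266995, the fatty acid synthase-like genes and the single marker genes are outside this rule and were added after their values were seen. Protein names come from tables of the study, held in part, in which 414 of 596 hemolymph protein accessions could be matched. Of the 5 genes, 4 are in a RefSeq table (assembly AGI-APGP_CSIRO_Sfru_2.0), whose coordinates were left aside. No sequence of these genes was used here, so identity between them and targeting signals were not examined. The libraries of other tissues are not used here.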

Additional observations from a re-analysis of the deposited data

How the results depend on the processing

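The median log2 ratio of the 5 genes in the prepupa over L6 was 0.80 on rescaled TPM, 2.50 on deposited TPM and 0.35 on CPM. In the pupa over the prepupa it was −2.05, and −1.63 on CPM, −1.34 with TMM factors, −1.43 with median-of-ratios size factors and −1.23 with a pseudocount of 5. In the pupa over L6 it was −1.18, and turned round to 0.26 on deposited TPM, where the thiolase LOC118266244 is the middle gene, while TMM factors gave −0.62, median-of-ratios size factors −0.72 and a pseudocount of 5 gave −0.77. Catalase LOC118262513 turned round to 0.27 in the prepupa over L6 on deposited TPM. Deposited TPM keeps rRNA in the total, which lowers L6 values by its own construction, and for the other settings the cause was not tested.

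The number of the 5 genes called higher in the prepupa than in L6 was 4 in place of 2 on deposited TPM, and the number called lower was 0 in place of 1 on deposited TPM and with a fold of 4. On deposited TPM 68.5% of all genes were higher and 7.78% lower, against 33.7% and 19.95% on rescaled TPM. In the pupa over the prepupa, 3 in place of 5 were lower with a fold of 4, and 4 were lower on CPM and with TMM and median-of-ratios factors, without catalase, and with a pseudocount of 5, without LOC118279186 (−0.99). The share of all genes that were lower was 39.8% on rescaled TPM, 33.2% on CPM, 30.0% with TMM factors and 30.8% with median-of-ratios factors. In the pupa over L6, the number higher was 0, and 1 on deposited TPM, on CPM and with a pseudocount of 0.1, and 2 with TMM and with median-of-ratios factors. The number lower was 3, and 2 with TMM and median-of-ratios factors, and 1 on deposited TPM, with a pseudocount of 5 and with a fold of 4. Among all genes 20.01% were higher and 28.2% lower on rescaled TPM, and 40.9% and 7.52% on deposited TPM. The shares were 23.1% and 31.1% on CPM, 29.6% and 23.9% with TMM factors, and 27.1% and 24.8% with median-of-ratios factors. No share over all genes is given for the fold of 4 or the other pseudocounts. LOC118279186 had its highest level in L6 on CPM, and catalase in the prepupa on deposited TPM.

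Relative to rescaled TPM, the median log2 ratio of genes above 20 TPM shifted by 1.80, −0.28 and 1.53 on deposited TPM, by −0.47, 0.63 and 0.17 on CPM, by −0.32, 0.93 and 0.61 with TMM factors, and by −0.32, 0.82 and 0.50 with median-of-ratios factors, for prepupa over L6, pupa over prepupa and pupa over L6. Of 120 ratios of single genes among the 5 under the scaling, read and pseudocount alternatives, 87 were classed as unchanged relative to counting error, 31 as moved and 2 as turned round. LOC118279186 in the prepupa over L6 changed sign on CPM (0.36 to −0.04) but was classed as unchanged. TPM without rRNA only left each of these ratios as it was on rescaled TPM to the digits given, so its agreement carries no weight.

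No paired analysis was possible because the labels give no replicate numbers and there is 1 library per stage, so leaving out a replicate was not done either. Depth limits the oxidase 1 values in L6 most, with 15 and 2 exon reads, and those of the dioxygenase in the pupa and L6, with 10 and 13.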

Other observations

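Reads that span exon junctions were compared after the values had been seen, as a share of the exon reads of a gene. This share does not depend on the scaling of the libraries. For LOC118275420 it was 53.3% in L6, 55.1% in the prepupa (Wilson interval 50.8 to 59.4%) and 26.4% in the pupa (19.4 to 34.9%). For LOC118275636 it was 71.8% in the prepupa (65.3 to 77.5%) and 40.6% in the pupa (25.5 to 57.7%), with 2 reads in L6. Catalase LOC118262513 had 4.99%, 7.86% and 2.44%, and the related oxidase 3-like gene LOC118266995 had 52.6%, 51.4% and 12.1%. The thiolase LOC118266244 did not share this, at 87.5%, 81.0% and 87.4%. Over 4403 genes with more than 1 exon and at least 100 exon reads in both libraries, the median share was 26.4% in the pupa and 39.9% in the prepupa, and 31.7% of these genes had a pupa share of 0.5 times the prepupa share or less. The pupa share was 0.480 times the prepupa share for LOC118275420, 0.310 times for LOC118262513, 0.236 times for LOC118266995 and 1.08 times for LOC118266244, so the lower pupa share of the oxidase was shared with many genes of that library. What lies behind the lower share in the pupa was not tested.

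Genes of fatty acid synthesis that were highest in the pupa were also seen. An elongase-like gene (LOC118275168) had no exon read in L6 or the prepupa and 38.1 rescaled TPM in the pupa. A fatty acid synthase-like gene (LOC118274609) had 0.302, 0.0844 and 29.3 in L6, prepupa and pupa, whereas another gene of that name (LOC118272899) had 42.0, 125 and 1.08. Within the list of peroxide-removing enzymes, peroxiredoxin-5 genes LOC118264402 and LOC118264970 had 7.10, 21.3 and 151, and 129, 52.5 and 68.3, so that genes with the same name were highest in different libraries, although on deposited TPM LOC118264970 was higher in the pupa than in L6 as well (log2 0.64, against −0.91). These genes were chosen after their values were seen.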
